A study of Saccharomyces cerevisiae with 3 samples.

Results

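Ribonucleotide reductase is the enzyme that makes deoxyribonucleotides for DNA synthesis, and the transcripts of its subunits and regulators were followed here in Saccharomyces cerevisiae cells producing War1K762R, set against cells producing War1. The genes were chosen by name, as RNR1, RNR2, RNR3, RNR4, SML1, DUN1, RFX1, WTM1, DIF1 and HUG1, and by having a value on at least 2 arrays. Of these 10 genes, 9 met the rule, out of 5479 genes of the whole series with a value on at least 2 arrays. RNR1, RNR2, RNR3, RNR4, SML1, WTM1 and DIF1 were measured on all 3 arrays, DUN1 and RFX1 on 2 and missing on replicate 3, and HUG1 had no named spot and was not analysed here. The genes were chosen with the ratios of these same arrays known, so their ratios are given as a description, without a test.

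Both strains were W303 yeast with WAR1 under control of the GAL1 promoter, which galactose switches on, 1 strain making War1K762R and the other War1. Whether either strain kept a WAR1 gene of its own is not given in the labels. War1 is a zinc cluster activator known for switching on PDR12, a transporter gene, under weak acid stress, and no acid is named in the labels. All cultures grew at 30 °C in rich medium with 2% raffinose to an OD600 of 0.8 and were harvested 1 h after 2% galactose was added, so both forms of War1 were made from an induced promoter. Each of 3 two-colour arrays held RNA of both strains, and per the design text the repeats are biological. Cy5 marked War1K762R in replicates 1 and 2, and Cy3 marked it in replicate 3, which is the dye swap. Values are log2 ratios of War1K762R over War1, centred on the median of all spots of an array, so that 1 is a doubling and a negative value is lower with War1K762R. That direction is likely but not certain, since it rests on the dye labels and assumes that Cy5 was divided by Cy3, a formula not given in the sources used here. Dyes were assigned by the source names of the channels. For replicates 1 and 2 the labels conflict, since the treatment text of the Cy3 channel names the WAR1-K762R strain where the source name gives War1, and that text was not used.

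Replicates 1, 2 and 3 had a value on 12277, 12112 and 7367 of 13056 spots, and 3579 genes were measured on all 3. Over these genes Pearson's r was 0.311 between replicates 1 and 2, 0.179 between 1 and 3, and 0.252 between 2 and 3, across genes, which are not independent replicates. The median SD of a gene between arrays was 0.20 on the log2 scale. PDR12, the known target of War1, had ratios of 1.41, 0.95 and 0.52, above 0 on every array. WAR1 itself, whose spots read both forms, had 0.74, 0.12 and 0.19.

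The reductase of budding yeast joins a large subunit, which holds the catalytic and allosteric sites, with a small subunit, which carries an iron cofactor and a radical. Rnr1 is the main large subunit and Rnr3 a minor, damage-inducible one, while Rnr2 and Rnr4 form the small subunit, in which Rnr2 holds the iron. Sml1 inhibits Rnr1, Dif1 and Wtm1 keep Rnr2 and Rnr4 in the nucleus, away from the cytoplasmic large subunit, and the checkpoint kinase Dun1 acts on Sml1 and Dif1 when DNA is damaged or replication stalls. Rfx1 (also Crt1) is the DNA-binding repressor that recruits Tup1 and Cyc8 to RNR2, RNR3, RNR4 and HUG1 until the checkpoint releases it.

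In the mean over the 3 arrays, the 2 small subunit genes had the larger ratios of the 4 subunit genes. For RNR2 this depended on the weight of the arrays. With both dye orientations weighted equally, RNR2 (0.17) was no higher than RNR3 (0.18) and about equal to RNR1 (0.17). RNR4 (YGR180C), which encodes the small subunit that pairs with Rnr2, had ratios of 0.95, 1.00 and 0.19 in replicates 1, 2 and 3. It lay above 0 on every array, near a doubling on the first 2 and 1.14-fold on the dye swap. Its mean was 0.71 ± 0.45 (SD, n = 3), or 1.64-fold, and 26 of 3579 genes had a higher mean. If the ratio was Cy3 over Cy5, every sign here turns and RNR4 would stand at 0.61-fold, with the same 26 genes below it. Both spots of RNR4 were above 0 on each array, with 0.87 and 1.03, 1.03 and 0.98, and 0.11 and 0.27. The gap between its spots was at most 0.17, against a range of 0.81 between arrays, so the difference between arrays was larger than that between spots.

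RNR2 (YJL026W), which encodes the iron-bearing small subunit, had ratios of 0.29, 0.55 and −0.08. It lay above 0 on replicates 1 and 2 and near 0 on the dye swap. Its mean was 0.25 ± 0.32 (SD, n = 3), or 1.19-fold, and its SD exceeded its mean. On replicate 3 its spots fell on opposite sides of 0, at −0.31 and 0.14, so the sign there is not resolved by the spots. RNR4 exceeded RNR2 by 0.66, 0.45 and 0.27 on the 3 arrays, a difference of log2 ratios of 0.46 ± 0.19 (SD, n = 3) with 1 sign throughout.

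The large subunit genes followed each other across the arrays and had small means. RNR1 (YER070W), the gene of the main large subunit, had ratios of −0.37, 0.21 and 0.41. RNR3 (YIL066C), the gene of the damage-inducible large subunit, had −0.19, 0.26 and 0.32. Both were thus below 0 on replicate 1 and above 0 on replicates 2 and 3, and both were highest on the dye swap, where the small subunit genes were lowest. The means were 0.08 ± 0.41 for RNR1 and 0.13 ± 0.28 for RNR3 (SD, n = 3 each), each smaller than its SD.

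RNR1 and RNR3 differed by −0.18, −0.05 and 0.10 on the 3 arrays, with no common sign. In Euclidean distance over the 3 arrays, 0.587% of all other genes lay nearer to RNR1 than RNR3 did, and 2.24% lay nearer to RNR3 than RNR1 did. For the small subunit genes 7.07% of genes lay nearer to RNR4 than RNR2 did, and 76.8% lay nearer to RNR2 than RNR4 did, so most genes were closer to RNR2 than its partner gene was. The 2 large subunit genes are related in sequence, and whether RNA of one bound the spots of the other was not tested. All spots of RNR1 and RNR3 carried the sign of their gene on each array. The largest gap between spots was 0.20 for RNR1 and 0.12 for RNR3, against ranges between arrays of 0.79 and 0.51.

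**Figure D1:**
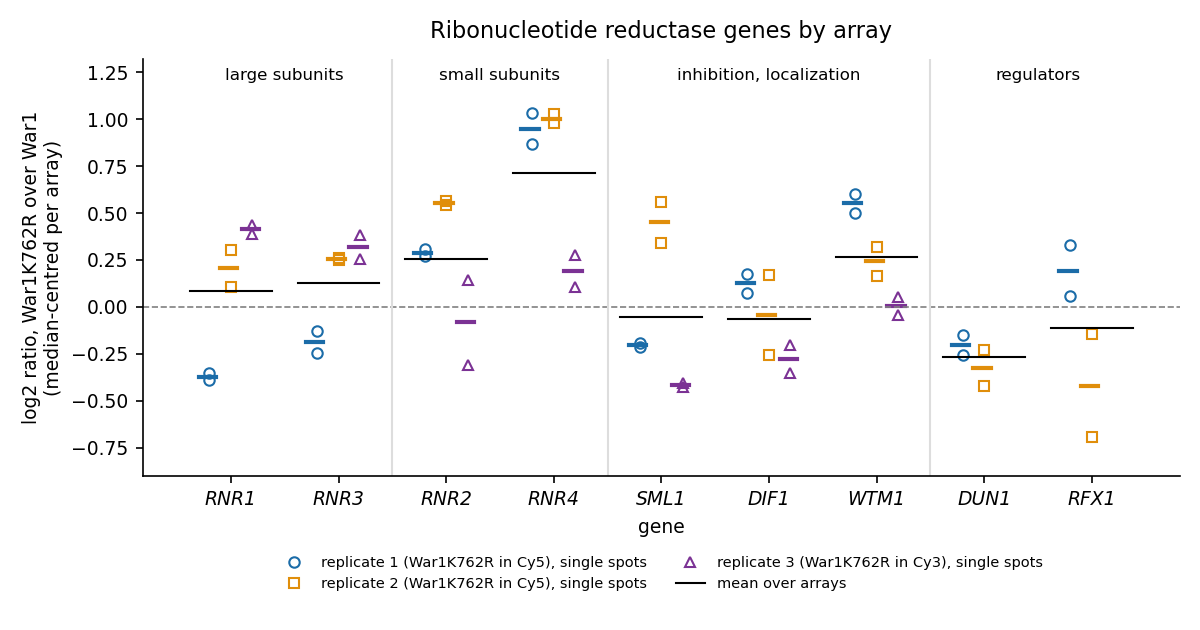
Log2 ratio of War1K762R over War1, median-centred per array, for 9 genes on the vertical axis, grouped by role along the horizontal axis. Open symbols are single spots, coloured bars the mean of the spots on an array and black lines the mean over arrays. RNR4 lies above 0 on all 3 arrays (0.95, 1.00 and 0.19), RNR1 and RNR3 are lowest on replicate 1 and highest on replicate 3, and DUN1 and RFX1 have no value on replicate 3.

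The genes of inhibition and localization had ratios of either sign. WTM1 (YOR230W), whose product anchors Rnr2 and Rnr4 in the nucleus, had 0.55, 0.24 and 0.01. It was above 0 on replicates 1 and 2 and at 0 on the dye swap, where its spots read 0.05 and −0.04. Its mean was 0.27 ± 0.27 (SD, n = 3), or 1.20-fold. WTM2, the gene of its paralog and its neighbour on the chromosome, had 0.14, 0.12 and −0.39. WTM1 and WTM2 were therefore both lowest on replicate 3.

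SML1 (YML058W), the gene of the Rnr1 inhibitor, had ratios of −0.20, 0.45 and −0.41. It was below 0 on replicates 1 and 3 and above 0 on replicate 2, with a mean of −0.06 ± 0.45 (SD, n = 3) and the widest range of the 9 genes, 0.86. Its spots lay 0.02 apart on replicates 1 and 3 and 0.22 apart on replicate 2, and each spot had the sign of its array. DIF1 (YLR437C), whose product helps to bring Rnr2 and Rnr4 into the nucleus, had 0.13, −0.04 and −0.28. Its mean was −0.06 ± 0.20 (SD, n = 3), and its spots on replicate 2 fell on opposite sides of 0, at 0.17 and −0.25. DIF1 was 1 of 2 genes, with DUN1, whose largest gap between spots was wider than the range between arrays. For the other 7 of 9 genes the range between arrays was the larger.

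The regulators were measured without the dye swap, so that strain and dye cannot be told apart for them. DUN1 (YDL101C), the checkpoint kinase gene, had −0.20 and −0.33 on replicates 1 and 2, with all 4 spot values below 0. RFX1 (YLR176C), the repressor gene, had 0.19 and −0.42, with opposite signs on the arrays and a gap of 0.54 between its spots on replicate 2. Over all 1896 genes with values on replicates 1 and 2 and none on replicate 3, the median ratios were −0.15 and −0.12. Over the 3579 genes with a value on replicate 3 they were 0.07 and 0.06 on the same 2 arrays. Of genes missing on replicate 3, 50.3% were below 0 on both other arrays, as DUN1 was, against 22.0% of genes present there. Among the genes missing on replicate 3, 28.3% had a lower mean than DUN1 (−0.27) and 51.2% a lower mean than RFX1 (−0.11). The part of this shift in the value of DUN1 was not tested.

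In order of their means over all 3 arrays, the genes ran RNR4 (0.71), WTM1 (0.27), RNR2 (0.25), RNR3 (0.13), RNR1 (0.08), SML1 (−0.06) and DIF1 (−0.06). RNR4 exceeded WTM1, the next in this order, by 0.40, 0.76 and 0.18, above 0 on each array and by 0.45 ± 0.29 on average (SD, n = 3). WTM1 and RNR2 differed by 0.01 ± 0.29, RNR2 and RNR3 by 0.12 ± 0.46, RNR3 and RNR1 by 0.05 ± 0.14, RNR1 and SML1 by 0.14 ± 0.60, and SML1 and DIF1 by 0.01 ± 0.43 (SD, n = 3 each). Each of these 5 mean differences was smaller than its SD. The genes were put in order by the same means, so the sign of each mean difference follows from the ranking. That holds for RNR4 and WTM1 too, and no test is read from these values. RNA came from whole cultures, so a different share of cells in S phase and a different amount of each transcript per cell cannot be told apart.

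Set against the distribution of each array, RNR4 stood in the upper tail on replicates 1 and 2, where 99.3% and 98.7% of genes had a lower ratio. On replicate 3 that share was 75.2%. The shares are over the genes with a value on each array, 5515, 5485 and 3583 on replicates 1, 2 and 3, so the sets differ. Genes missing on replicate 3 lay lower on replicates 1 and 2, with medians of −0.15 and −0.12. For RNR1 the shares were 12.1%, 75.1% and 93.4% on replicates 1, 2 and 3, so that it stood highest where RNR4 stood lowest. For SML1 the shares were 26.5%, 90.2% and 4.33%, so that it was near the lower end on 1 array and near the upper end on another. RNR2 had 81.7%, 93.3% and 37.0%, and RNR3 28.1%, 79.4% and 87.6%.

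**Figure D2:**
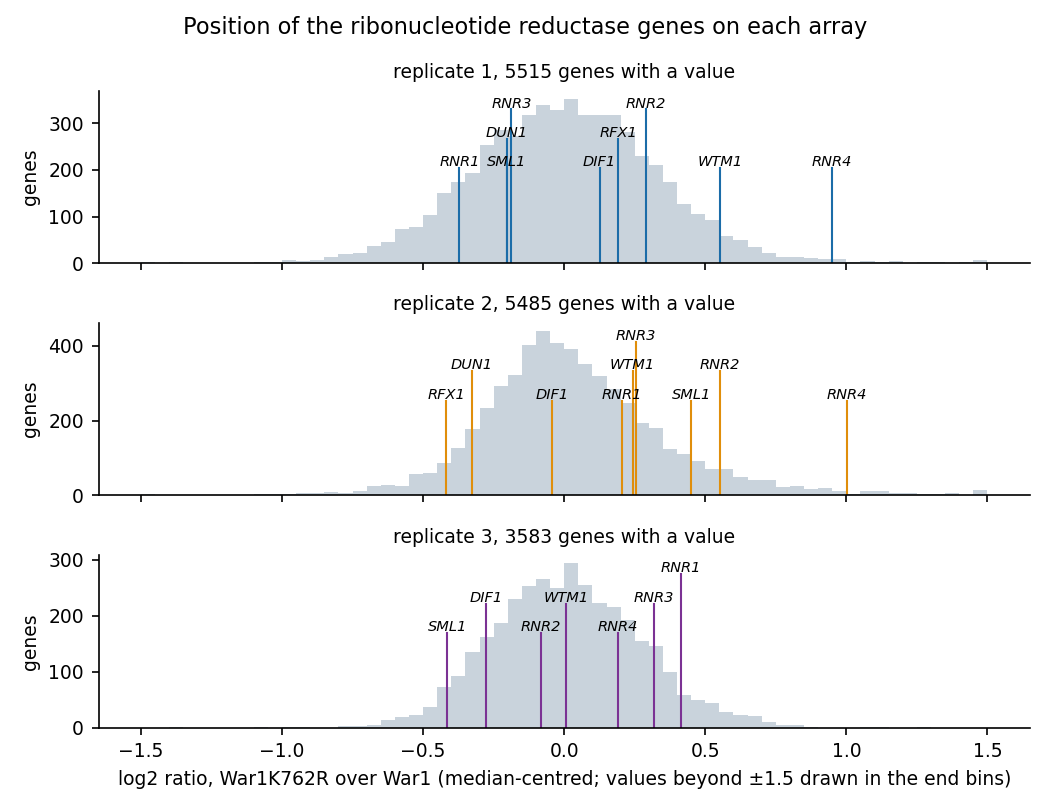
Histograms of the log2 ratio of War1K762R over War1 (horizontal axis, median-centred) over all genes with a value on replicates 1, 2 and 3 (5515, 5485 and 3583 genes), with the number of genes on the vertical axis and lines at the 9 chosen genes. RNR4 lies in the upper tail on replicates 1 and 2 but not on replicate 3, and RNR1 lies on the low side of replicate 1 and the high side of replicate 3.

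The test across the whole table, limma on 3579 genes with Benjamini-Hochberg adjustment and a threshold of 0.05, called 13 genes, or 0.363%, of which 12 were higher with War1K762R (0.335%) and 1 lower (0.0279%). Of the 7 reductase genes and regulators on all 3 arrays it called 0, and 1 of the 7 had an unadjusted p under 0.05 in limma, where 493 of all genes (13.8%) did. The choice of these genes used the same contrast, so nothing is read from this count. With genes on at least 2 arrays, limma called RNR4, 1 of 9 chosen genes, and 2.14% of 5479 genes. Without replicate 3 it also called RNR4, 1 of 9, and 1.46% of 5475 genes. Leaving out replicate 3 on the genes of all 3 arrays, a setting chosen after seeing the data, called RNR4, 1 of 7. There 0.447% of genes were called. Without replicate 3, Cy5 marked War1K762R on both arrays, so strain and dye cannot be told apart in those calls. With a dye term limma called 0 of the 7, as without centring, on single spots, with array weights, and without replicate 1 or replicate 2. RNR4 was among the genes chosen with these ratios known, so no support is read from its calls. Above 0 on all 3 arrays were 2 of the 7, RNR4 and WTM1, and 24.7% of all genes. WTM1 counts here with 0.01 on replicate 3, where its spots fell on opposite sides of 0. Below 0 on all 3 were 0 of the 7 and 13.5% of all genes, and 0 of the 7 were at least 1.5-fold apart in 1 direction on all 3 arrays, as were 0.224% of all genes.

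The spread between arrays was wide for these genes. The median SD of the 7 was 0.32, against 0.20 for all genes on all 3 arrays, and each of the 7 had an SD above that median. The SDs ran from 0.20 for DIF1 to 0.45 for RNR4 and SML1, and 94.3% and 93.9% of genes had a smaller SD than RNR4 and SML1. The median gaps between spots of the 7 were 0.10, 0.15 and 0.12 on replicates 1, 2 and 3, against 0.07, 0.11 and 0.12 for all genes.

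The arrays with War1K762R in Cy5 and the one with it in Cy3 were also set apart for each gene. The dye-balanced ratio gives both orientations equal weight, and the orientation difference is the mean of replicates 1 and 2 minus replicate 3, divided by 2. With only 1 array in the swapped orientation, dye and the difference between cultures cannot be told apart in this second value. RNR4 had a dye-balanced ratio of 0.58 and an orientation difference of 0.39. RNR2 had 0.17 and 0.25, and WTM1 0.20 and 0.20.

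The large subunit genes had orientation differences of the opposite sign, −0.25 for RNR1 and −0.14 for RNR3, beside dye-balanced ratios of 0.17 and 0.18. The 4 subunit genes were thus above 0 in the dye-balanced ratio, with RNR1, RNR2 and RNR3 at nearly the same value. SML1 had a dye-balanced ratio of −0.15 with an orientation difference of 0.27, and DIF1 had −0.12 and 0.16. In 4 of the 7 genes the orientation difference was the larger of both in size, as in 42.0% of all genes. Replicate 3 was the lowest of the arrays for 5 of the 7, as for 44.1% of all genes, and the highest for 2, RNR1 and RNR3, as for 25.6% of all genes.

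**Figure D3:**
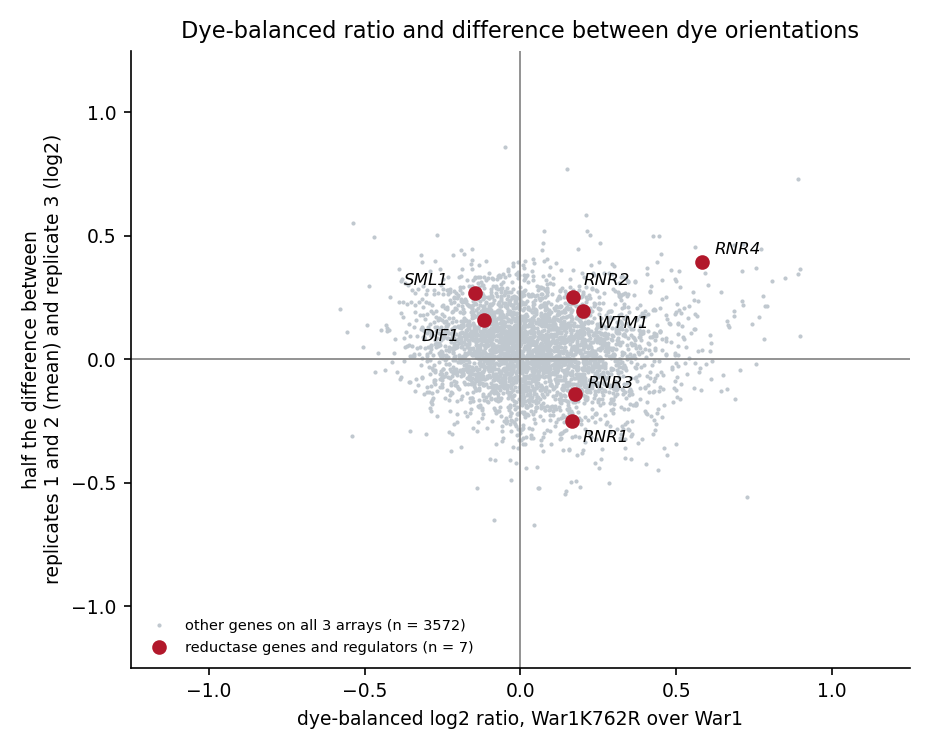
Dye-balanced log2 ratio of War1K762R over War1 (horizontal axis) and the mean of replicates 1 and 2 minus replicate 3, divided by 2 (vertical axis, log2), for 7 chosen genes in red and 3572 other genes in grey, 3 genes lying outside the plotted range. RNR4 lies to the right at 0.58 and 0.39, and the large subunit genes RNR1 and RNR3 lie below 0 on the vertical axis while the other 5 lie above it.

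Of the wider pathway, 7 lists with 140 genes were described, of which 139 had a spot and 84 a value on all 3 arrays. Limma called 0 of the 84 higher and 0 lower, and 8 (9.52%) had an unadjusted p under 0.05, all of them higher, where 493 of all genes did (13.8%), 397 of them higher and 96 lower. Of the 84, 8 were above 0 on all arrays and 9 below, or 9.52% and 10.7%, against 24.7% and 13.5% of all genes tested. The medians of the lists lay between −0.01 and 0.14, where the median of all genes was 0.05.

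The checkpoint that controls Dun1 had 9 of 19 genes on all 3 arrays, with a median of 0.07, 3 genes above 0 on all of them and 1 below. The other 10 genes, missing on replicate 3, were all below 0 on both remaining arrays, with a median of −0.38, and over all 19 genes the median was −0.23. Of all genes missing on replicate 3, 50.3% were below 0 on both. RAD24, of the checkpoint clamp loader, had −0.65 and −0.55, and DPB11, of replication initiation and checkpoint activation, −0.81 and −0.45. MEC1, the upstream kinase gene, had 0.19, 0.06 and 0.06, and RAD53, the effector kinase gene, 0.00, −0.05 and 0.11, so both were close to 0. PTC2, which encodes a phosphatase acting on Rad53, had the highest mean of the list, 0.37 ± 0.19 (SD, n = 3), with 0.40, 0.55 and 0.16. TEL1, which encodes the kinase related to Mec1, had the lowest mean of the 9 genes on all 3 arrays, −0.31 ± 0.61. Its ratios were −0.75, −0.57 and 0.38, with no common sign.

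Corepressors and other control of the RNR promoters had 4 of 11 genes on all 3 arrays, with a median of 0.10. TUP1 and CYC8, the corepressor genes that act with Rfx1, had −0.16, −0.19 and 0.43, and −0.10, 0.14 and 0.21. Their means were 0.03 ± 0.35 and 0.09 ± 0.16 (SD, n = 3 each), TUP1 being the lowest of these 4 genes. ROX1, which encodes the repressor of hypoxic genes, had the highest mean, 0.62 ± 0.06, with 0.68, 0.60 and 0.58, the only one of the 4 above 0 on all arrays.

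Genes known to be induced by DNA damage, as RNR3 is, had 10 of 23 on all 3 arrays and a median of 0.07, with 1 above 0 on all of them and 0 below. Of the 12 genes missing on replicate 3, 9 were below 0 on both remaining arrays and 0 above. Of all genes missing there, 50.3% were below 0 on both, and the share above 0 on both was not taken. The median over the 22 genes of the list measured on at least 2 arrays was −0.07. The 1 gene above 0 on all 3 arrays was RAD2, which encodes a nuclease of nucleotide excision repair, at 0.79, 1.28 and 0.52 and a mean of 0.87 ± 0.38 (SD, n = 3). TOS4, a gene of the G1/S transition, had the lowest mean of the 10 genes on all 3 arrays, −0.30 ± 0.79, with −0.96, −0.51 and 0.57. Its order over the arrays was that of RNR1, lowest on replicate 1 and highest on replicate 3, where 25.6% of all genes were highest. On replicate 2 the signs differed, with TOS4 below 0 and RNR1 above.

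Genes of G1/S transcription, the class to which RNR1 belongs through the factor MBF, had 17 of 34 on all 3 arrays and a median of −0.01. SVS1 had the highest mean of these 17, 0.72 ± 0.43 (SD, n = 3). POL12, which encodes a subunit of DNA polymerase alpha, had the lowest of these 17, −0.24 ± 0.03, with −0.26, −0.21 and −0.24. CLN3, the cyclin gene that starts the program, had 0.13, 0.47 and 0.37, named after its values were seen. In all, 2 of the 17 were above 0 on every array and 1 below. Another 17 were missing on replicate 3, of which 10 were below 0 on both remaining arrays and 1 above. Among all genes missing there, 50.3% were below 0 on both, and the share above was not taken. Of the 10, CDC45 had −1.65 and −0.87, the lowest mean of the whole list, and MBP1 had −0.57 and −0.34. The 1 above was CLN2, with 0.01 and 0.70. CDC45, MBP1 and CLN2 were named after their values were seen.

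Enzymes of nucleotide supply had 24 of 28 on all 3 arrays and a median of 0.02, with 0 above 0 on every array and 6 below. These 6 were DUT1, DFR1, URA6, FCY1, PHM8 and SHM2. Their means ran from −0.24 for PHM8, the lowest of the 24, to −0.09 for URA6. DUT1, the dUTPase gene, had −0.14, −0.08 and −0.17, and DFR1, the dihydrofolate reductase gene, −0.14, −0.25 and −0.20. FUR1, the uracil phosphoribosyltransferase gene, had the highest mean of the 24, 0.21 ± 0.20 (SD, n = 3). Missing on replicate 3 were 4 genes of the list. CDC21, the thymidylate synthase gene, had −0.93 and −0.53 on the other arrays, and CDC8, the thymidylate kinase gene, −0.26 and −0.02. CDD1, the cytidine deaminase gene, had 0.63 and 0.61, and HAM1, which encodes a pyrophosphatase of abnormal nucleotides, 0.06 and −0.12. The members below 0 on every array and these 4 were named after their values were seen.

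Thiol electron donors and iron cofactor supply, which reduce the large subunit and load the small one, had 15 of 18 on all 3 arrays and a median of 0.01. TRR1, the thioredoxin reductase gene, had the highest mean, 0.43 ± 0.39 (SD, n = 3), with 0.73, 0.58 and −0.01. TRX1 and TRX2, the thioredoxin genes, had 0.51, 0.36 and −0.35, and 0.18, 0.37 and −0.40. These 3 genes were lowest on the dye swap, as were 10 of the 15 genes of the list and 44.1% of all genes. AFT1, the iron regulator gene, had the lowest mean, −0.19 ± 0.09, and was the only one of the 15 below 0 on all arrays, where 0 were above.

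Transport and turnover of the subunits, with the paralogs of Wtm1, had 5 of 7 on all 3 arrays and a median of 0.14. CRM1, the main nuclear exportin gene, had the highest mean, 0.55 ± 0.24 (SD, n = 3), with 0.39, 0.82 and 0.44, the only one of the 5 above 0 on every array. WTM2 had the lowest mean of the 5, −0.04 ± 0.30. Missing on replicate 3 were UBR2, with −0.31 and −0.68 on the other arrays, and UME1, with 0.31 and 0.41. KAP122, an importin gene tied to the localization of Rnr2 and Rnr4, had 0.19, −0.03 and 0.08 and so no common sign. MEC1, RAD53, RAD24, DPB11, TUP1, CYC8, TRX1, TRX2, KAP122, UBR2 and UME1 were named after their values were seen.

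**Figure D4:**
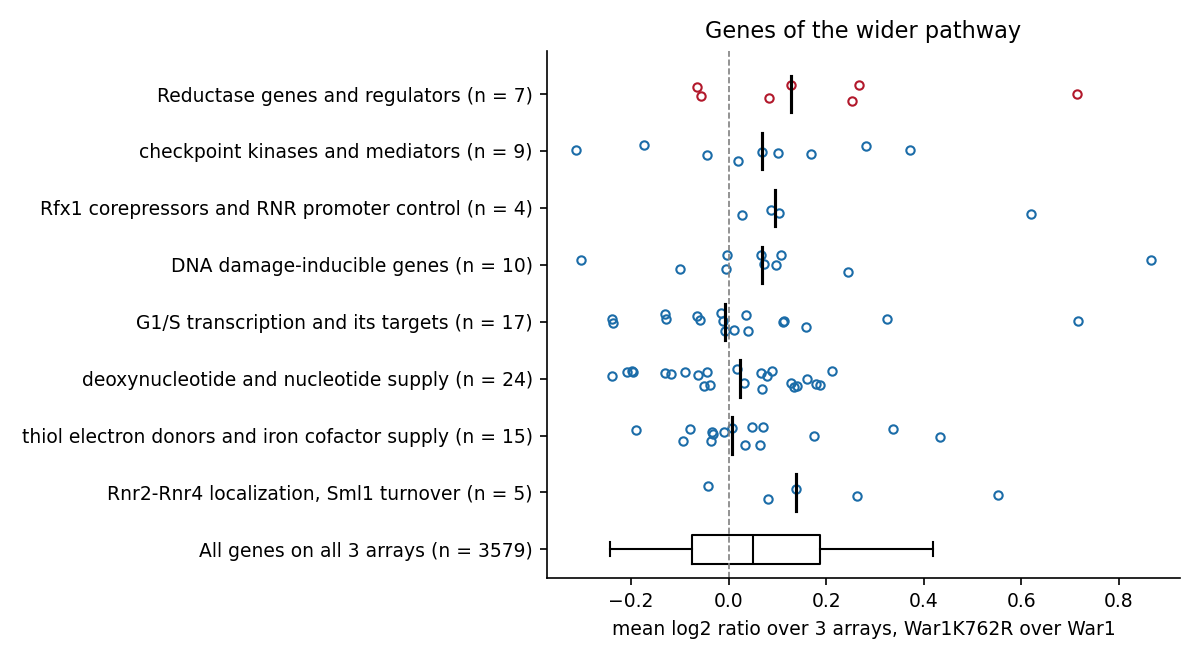
Mean log2 ratio of War1K762R over War1 over 3 arrays (horizontal axis) for each gene measured on all 3, in the chosen genes (red), in 7 lists of the wider pathway (blue) and over all 3579 genes (box with whiskers at percentiles 5 and 95). Black lines are medians, which lie between −0.01 and 0.14 in the 7 lists, and RNR4 (0.71) stands apart from the other 6 chosen genes.

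Of the genes of the lists, 55 were measured on replicates 1 and 2 and not on replicate 3, as DUN1 and RFX1 were. Of these 55, 33 were below 0 on both arrays, or 60.0%, with a median of −0.21 over the 2 arrays. Over all genes missing on replicate 3 that median was −0.12. The part of the missing values in this shift was not tested.

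The genes with the pattern most like that of RNR4, by Euclidean distance over the 3 arrays among 3579 genes, were OLE1, BAT2, JEN1, IDP1 and LEU1, at 0.18, 0.21, 0.24, 0.25 and 0.25. OLE1, the fatty acid desaturase gene, had 0.88, 1.15 and 0.10. BAT2, the cytosolic branched-chain aminotransferase gene, had 0.86, 0.83 and 0.12. JEN1, the lactate permease gene, had 0.96, 1.17 and 0.35, IDP1, the mitochondrial isocitrate dehydrogenase gene, 0.74, 0.87 and 0.22, and LEU1, the isopropylmalate isomerase gene, 0.81, 0.85 and 0.04. All 5 were higher on replicates 1 and 2 than on replicate 3, as RNR4 was, which follows from how they were picked.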

How the data were processed

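RNA of War1K762R and War1 cultures was hybridised on 3 two-colour arrays. The table deposited by the authors holds a log2 ratio for every measured spot; how it was scanned, filtered and normalized is not stated in the labels. Small deposited values (size under 0.5), raised as powers of 2, came out with 3 decimals, within their rounding, for 100% of replicates 1 and 2, and for 100% of replicate 3 only after a change of sign, so replicate 3 was taken as already inverted and the columns as running one way. Arrays were centred on the median spot (−0.27, 0.16 and 0.09 as deposited), spots of a gene were averaged, and genes on all 3 arrays were tested against 0 with limma 3.58.1 (lmFit, eBayes, two-sided, Benjamini-Hochberg) in R 4.3.3, after a check on simulated data. Spots were named from the platform annotation (11146 of 13056 had a gene). Members and lists were chosen with earlier results of these data known. Named genes were all members, the called genes of each list, and its highest and lowest gene among those on all 3 arrays. Also named were the 5 genes nearest to the member with the largest mean, and chromosomal neighbours. Further list genes, outside this rule, were named after their values were seen, as the text says. Alternatives covered centring, spots, missing values, dye, weights, the sign of replicate 3 and leaving out each array. Promoter and protein sequences were not used here. The number of arrays limits the precision. The labels do not say how the cultures were separated beyond calling the arrays biological repeats.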

Additional observations from a re-analysis of the deposited data

How the results depend on the processing

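The 12 genes called higher in limma became 25 without centring, 3 with centring on the genes tested, 4 on single spots, 67 when 2 measured arrays sufficed, 24 with weighted arrays, 2 with a dye term and 0 when the sign of replicate 3 was turned. The 1 gene called lower became 50 with genes on at least 2 arrays and 0 with replicate 3 turned once more, where limma found 145 genes at an unadjusted p under 0.05. Leaving out 1 array gave 1 to 46 genes higher and 1 to 34 lower. Without replicate 3 on the genes of all 3 arrays, a setting chosen after seeing the data, 15 were higher and 1 lower. With other genes entering, the counts change by construction; the other causes were not tested. The means of RNR4, RNR2 and WTM1 were above 0 in the 8 alternatives that could move them (3 others leave them as they are by construction), from 0.57 to 0.98, 0.10 to 0.42 and 0.12 to 0.40. RNR1 ran from −0.19 to 0.31 and turned negative without replicate 3 and with it turned. RNR3 turned negative with replicate 3 turned (−0.08). SML1 ran from −0.31 to 0.22 and DIF1 from −0.16 to 0.12, so the sign of neither was fixed. RFX1 was at 0.19 without replicate 2 and −0.42 without replicate 1, and DUN1 lay between −0.33 and −0.20 in the 4 that could move it. These shifts of single genes were smaller than the SD between arrays. For leaving out an array and for the dye term this follows from arithmetic, so no stability is read from it. The median of the checkpoint list, 0.07 with 9 genes, was −0.23 when 2 measured arrays sufficed, and that of the damage-inducible list, 0.07, was −0.07. Each array already sets both strains against each other, so the test of the ratios against 0 is paired by array. Missing values limit DUN1 and RFX1 most.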

Other observations

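The genes next to the reductase genes on the chromosome gave a view of their surroundings. CMP2, a calcineurin subunit gene beside SML1, had 0.41, 0.55 and 0.39, above 0 on all 3 arrays, while SML1 itself had −0.20, 0.45 and −0.41. CAR2, the ornithine transaminase gene beside DIF1, had 0.43, 0.59 and 0.35, while DIF1 had 0.13, −0.04 and −0.28. ECM30, on the other side of DIF1, had 0.05, −0.07 and −0.20, highest on replicate 1 and lowest on replicate 3 like DIF1. FIS1, beside RNR3, had −0.36, 0.02 and 0.06, and TDA2, beside RNR1, −0.03, −0.28 and 0.05. GET3, beside DUN1, was below 0 on all 3 arrays with −0.07, −0.31 and −0.20, and POL3, which encodes the catalytic subunit of DNA polymerase delta and lies on the other side of DUN1, had 0.32, −0.10 and 0.29. CBF5, beside RFX1, had −0.23, 0.06 and −0.38. Missing on replicate 3 were OKP1, beside RNR4, at 0.10 and −0.31, and RRN7, beside RNR2, at 0.00 and −0.07. Also missing there were YLR177W, beside RFX1, at 0.61 and 0.14, MKK1, beside WTM1, at 0.20 and 0.20, and YIL067C, beside RNR3, at −0.14 and 0.25. YJL027C, on the other side of RNR2, had a value on replicate 1 only, −0.37.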
